A study of Mus musculus with 18 samples.

Results

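The clustered protocadherin genes are described here in the forebrain, midbrain and hindbrain of wild-type and Fmr1CRE mice. A gene was taken as a member when it was listed as protein-coding in mouse GENCODE release M21 and its symbol was Pcdha, Pcdhb, Pcdhga, Pcdhgb, Pcdhac or Pcdhgc followed by a number. This rule, which used no measured value, gave 57 of the 53468 genes in the count table, 14 in the alpha, 22 in the beta and 21 in the gamma cluster.

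Clustered protocadherins are cell-surface adhesion proteins of the cadherin superfamily that are best known from neurons, where homophilic binding between identical isoforms lets branches of one neuron recognise and avoid each other. In the alpha and gamma clusters every member has a large variable exon with its own promoter, which is spliced to 3 constant exons shared by the whole cluster, whereas beta genes have a single exon and no shared cytoplasmic tail. Most isoforms are thought to be chosen at random and in small numbers in each neuron, through CTCF and cohesin that loop a distant enhancer to one promoter, while the C-type isoforms at the end of the alpha and gamma clusters are switched on more uniformly.

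Poly(A) RNA was sequenced from 3 wild-type and 3 Fmr1CRE littermates at P25 (postnatal day 25), with forebrain, midbrain and hindbrain dissected from each of the 6 mice, so that each of the 6 groups had 3 libraries. Fmr1CRE mice, made on a C57BL/6 background by CRISPR/Cas9 editing of zygotes, carry a single-base change in a candidate regulatory element of Fmr1, the gene for the RNA-binding protein FMRP, copied from a family with X-linked intellectual disability. The labels and the study's methods name no other allele and no treatment for these mice. The 18 libraries were single-end and were sequenced in 2 pools, and since the sources used here do not say which library went into which pool, a difference between pools was not tested.

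Each library held between 22455512 and 28061185 reads counted on genes. Fmr1 itself differed little between genotypes on the log2 scale, by -0.0033 (SE 0.11) for forebrain, by 0.0056 (SE 0.10) for midbrain and by 0.15 (SE 0.13) for hindbrain, so that its level does not check the genotype labels. The region labels were checked with 4 marker genes for forebrain and 6 each for midbrain and hindbrain. Forebrain markers (Neurod6, Emx1, Tbr1, Lhx2) summed to 173 to 229 CPM (library-size scaled counts) in forebrain and 6.57 to 10.2 in hindbrain, but also to 122 to 170.1 in midbrain. In forebrain, midbrain and hindbrain, midbrain markers summed to 1.96 to 5.77, 47.8 to 87.3 and 57.4 to 81.6. Hindbrain markers summed to 0 to 4.57, 35.3 to 95.4 and 183 to 378 in that order. The midbrain markers thus overlapped between midbrain and hindbrain, which the hindbrain markers kept apart. The forebrain libraries of replicate 3 of each genotype stood apart in one respect. Of 34 genes that differed by at least 1 on the log2 scale between wild-type mouse 3 and Fmr1CRE mouse 3 in both midbrain and hindbrain, 14 differed the opposite way in forebrain and 2 the same way, against 3 to 9 opposite and 4 to 14 the same way in the other 8 pairs of mice. None of those genes was a member (0 in each pair). Whether these 2 forebrain libraries were exchanged was not tested, and results are given with and without replicate 3.

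The members lie in 3 consecutive tandem arrays on the plus strand of chromosome 18 (GRCm38). The alpha cluster spans chr18:36930184-37187661, with its constant exons starting at base 37156155, the beta cluster chr18:37264938-37524479, and the gamma cluster chr18:37661793-37841873, with constant exons from base 37825021. Because alpha and gamma transcripts of a cluster end in the same exons, a short read from that end can come from any of them. Of all 50-base windows of a member's most read transcript, a median of 59.6% (48.2 to 63.9%) also occurred in another member for alpha, 45.3% (41.2 to 93.2%) for gamma and 4.26% (0 to 12%) for beta, so beta values are the best resolved and single alpha and gamma values depend on how the quantifier divided shared reads. Pcdhgc4 was the extreme case, with 71.1% of its reads over all libraries given to a 2272-base transcript that is 93.3% constant exon, and 24.5% to its full-length transcript. Gene identifiers in 2 rows carry the symbol Pcdha11 in this release (ENSMUSG00000007440 and ENSMUSG00000102206), and they are kept apart here. Transcripts also differed in composition, with a median of 53.1% G or C in gamma against 47.3% in alpha and 46.0% in beta.

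Levels between genes were compared as CPM (TMM-scaled counts relative to library size) per kilobase of effective transcript length, averaged over the 18 libraries. Per kilobase, the median level was 1.38 in the alpha, 1.33 in the beta and 1.98 in the gamma cluster, below the median of 7.05 over the 20363 genes tested for regions. The C-type isoforms were the most abundant members. Per-kilobase levels were 25 for Pcdhgc4, an isoform needed for the survival of many neurons, 23.8 for Pcdhgc3, which acts in dendrite branching, and 18.6 for Pcdhgc5, which binds a GABA-A receptor subunit. That Pcdhgc4 ranked above Pcdhgc3 rests on its effective length of 2879 bases, against 5422 for Pcdhgc3. The short length reflects the reads given to its short transcript. Without division by length, mean CPM was 72.0 for Pcdhgc4 and 129 for Pcdhgc3. The effective length of Pcdhgc5, 3654 bases, was also below the 4741 bases of the transcript with 94.6% of its reads. Its mean CPM was 67.9. Pcdhac2, which serotonergic axons use to space themselves apart, followed at 8.96 CPM per kilobase. Pcdhac1, the other alpha C-type isoform, stood at 1.38, near the median of its cluster.

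Among the variable alpha genes, which encode isoforms that reach the cell surface together with other protocadherins, the highest per-kilobase levels were those of Pcdha4 (2.56), Pcdha12 (2.08) and Pcdha9 (1.80). Pcdha4 shares 44.45% of its windows with an overlapping gene outside the set, Gm42416, which was given 0 counts in every library. Pcdha8 was the lowest alpha gene at 0.11. Beta genes, whose proteins also bind homophilically, were led by Pcdhb20 (3.17), Pcdhb9 (2.99) and Pcdhb17 (2.98 CPM per kilobase). These 3 beta genes differed by less than the SD of any of them over the midbrain libraries (0.31 to 0.36). Pcdhb1 was at the bottom with 0.0254, and its 0 to 5 counts per library kept it out of every test that used a filter on low counts. Of the gamma-a and gamma-b genes, Pcdhga11 was highest at 4.03, ahead of Pcdhga3 (2.93) and Pcdhga7 (2.90), and Pcdhgb5 was lowest at 1.23. The other members lay between these values within their clusters, and 56 of the 57 passed the filter on low counts.

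**Figure D1:**
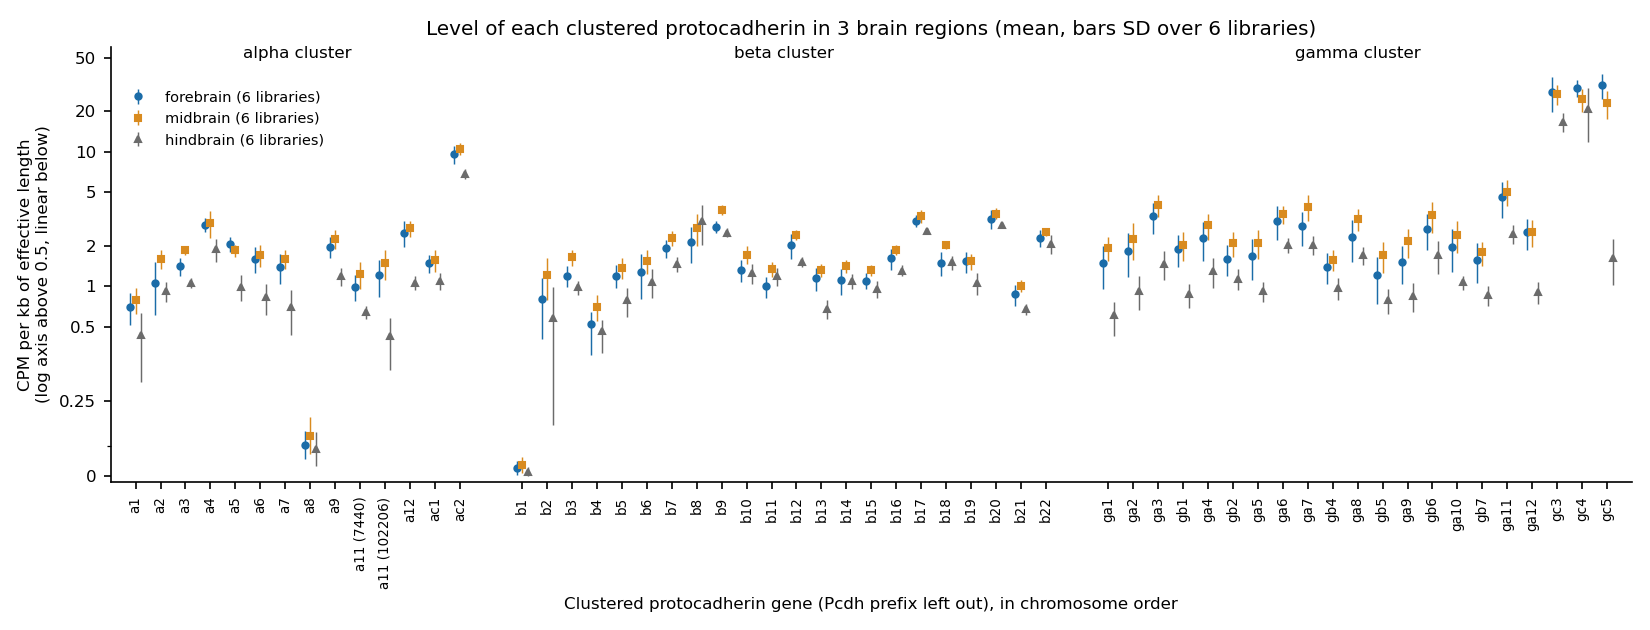
Level of each of the 57 members in forebrain, midbrain and hindbrain, as mean CPM per kilobase of effective transcript length, with bars for the SD over the 6 libraries of each region and genes in chromosomal order; the axis is logarithmic above 0.5 and linear below. Pcdhgc3, Pcdhgc4 and Pcdhgc5 stand at the top in forebrain and midbrain, and of these Pcdhgc5 alone drops in hindbrain to the level of the variable isoforms, at 1.62.

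As a group the members were lower in hindbrain than in the other regions. Summed over all 57, the level was 537 CPM in the lowest, 861 in the median and 909 in the highest forebrain library, 673, 892 and 975 in midbrain, and 438, 463 and 501 in hindbrain. Every forebrain and midbrain library was thus above every hindbrain library. In bulk tissue, fewer cells of a type and less RNA per cell cannot be told apart. Regions were compared over all genes, with the 6 groups in 1 fit and both genotypes weighted equally. This fit has no term for the mouse and treats the 3 samples of one mouse as if unrelated. Counts from a fit with such a term are given at the end.

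Between midbrain and hindbrain, 51 of the 56 members tested were higher in midbrain and 0 lower at an adjusted p below 0.05 (edgeR's quasi-likelihood test, Benjamini-Hochberg adjustment over all genes). Over all 20363 genes tested 49.1% were called, 25.1% higher and 24.0% lower in midbrain. The calls comprised 13 of 14 alpha, 18 of 21 beta and 20 of 21 gamma genes. The median log2 fold change was 0.80 over the members, 0.86 in alpha, 0.51 in beta and 1.1 in gamma, beside -0.03 over all genes. The 5 members that did not pass were Pcdha8, Pcdhb6, Pcdhb8, Pcdhb11 and Pcdhgc4, chosen here for that outcome. Forebrain markers summed to 122 to 170 CPM in midbrain and 6.57 to 10.2 in hindbrain. Their part in this comparison, for Pcdhgc5 as for the other members, was not tested.

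Between forebrain and hindbrain, 37 of 56 members were higher in forebrain and 0 lower, where 51.7% of all genes were called, 26.4% higher and 25.3% lower in forebrain. The clusters were uneven, with calls for 12 of 14 alpha and 18 of 21 gamma genes but 7 of 21 beta genes. Median log2 fold changes were 0.54 over the members, 0.62 in alpha, 0.23 in beta and 0.83 in gamma, beside -0.01 over all genes. The counts by cluster depended on the mice. Beta calls fell to 2 without wild-type mouse 1 and to 4 without wild-type mouse 2 (3 higher and 1 lower) or Fmr1CRE mouse 3. Without both mice of replicate 3 the calls were 9 in alpha, 4 in beta and 10 in gamma. Without both mice of replicate 3 the total was 23 of 56, all higher in forebrain. Of all 20602 genes 8944 were then called, 4719 higher and 4225 lower. Leaving out single mice gave 26 (without Fmr1CRE mouse 3) to 41 (without Fmr1CRE mouse 1). In these 2 settings 9633 of 20818 and 9970 of 20669 genes were called. Under scaling by total counts alone, which moved the median of all genes to -0.15, 28 members were higher and 2 beta genes, Pcdhb8 and Pcdhb11, lower in forebrain. Of all 20363 genes, 4349 were higher and 6819 lower under that scaling. Both comparisons share the hindbrain libraries. Of the members, 36 were called in both, 15 against midbrain alone, 1 (Pcdhgc4) against forebrain alone and 4 in neither. Within wild-type libraries alone 43 members were called for midbrain and 35 for forebrain against hindbrain, where 7489 and 8299 of all 19442 genes were. Within Fmr1CRE libraries alone 18 and 8 members were called, where 4847 and 6178 of all 19434 genes were. Of these 8 members, 7 were higher in forebrain and 1 lower.

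**Figure D2:**
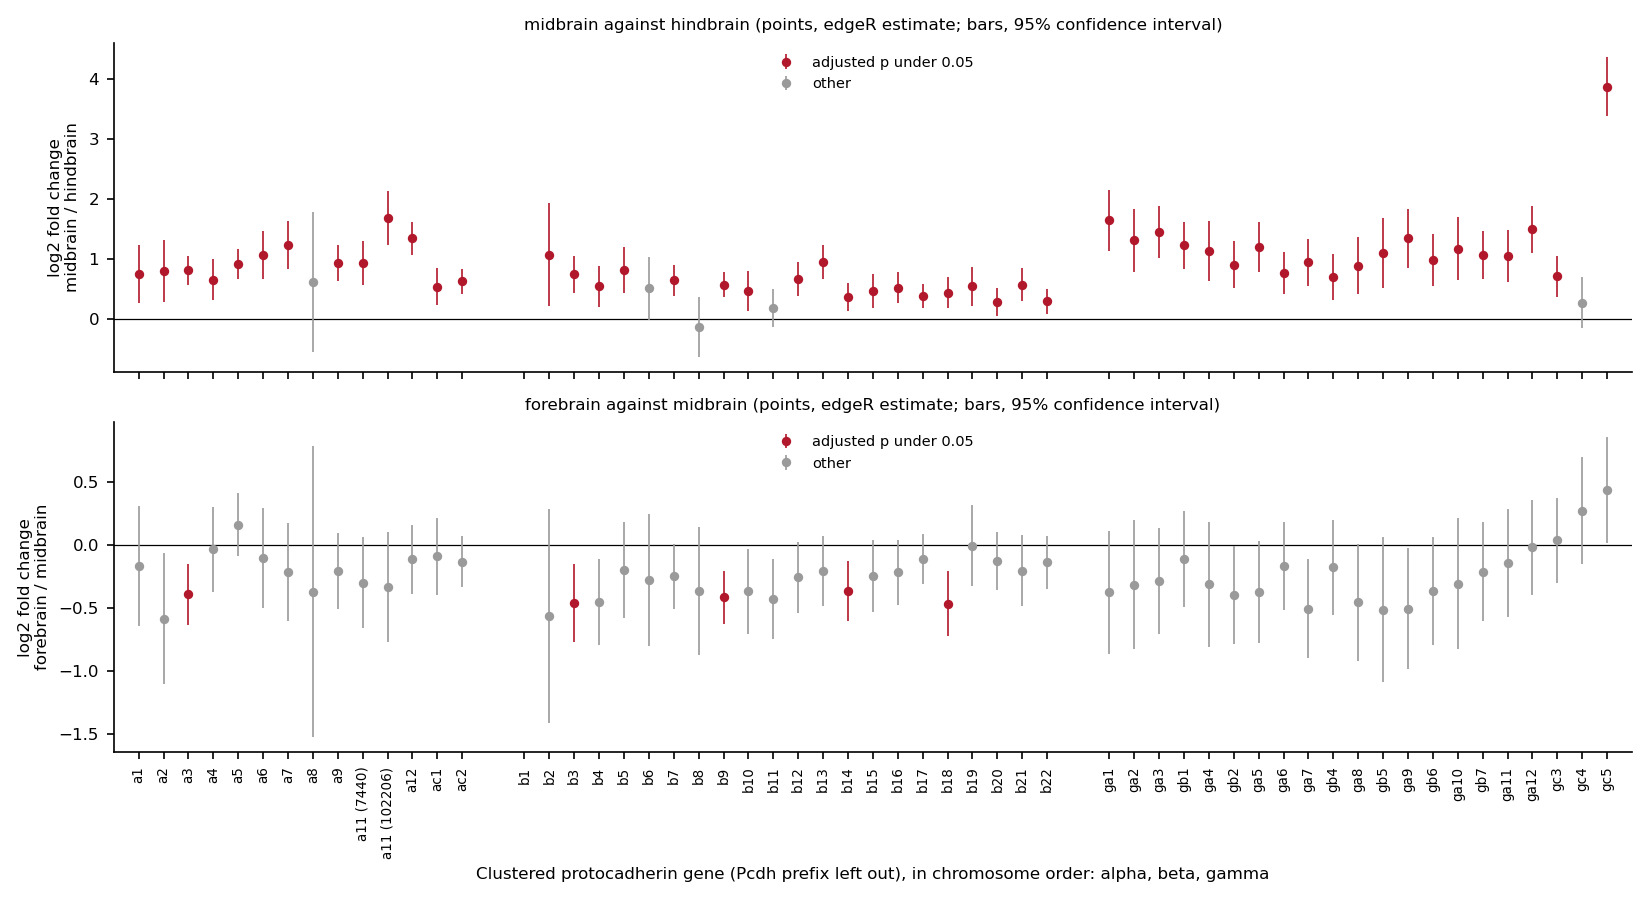
Log2 fold change of each of the 56 tested members for midbrain against hindbrain (upper panel) and forebrain against midbrain (lower panel), with 95% confidence intervals from edgeR, genes in chromosomal order, and members with an adjusted p below 0.05 in red. Nearly all members are above 0 in the upper panel, with Pcdhgc5 highest at 3.88, and 5 members are called below 0 in the lower panel.

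Pcdhgc5 had the largest regional difference of all members. Its level was 66.0 CPM in the lowest, 121 in the median and 132 in the highest forebrain library, 50.6, 95 and 98.3 in midbrain, and 3.45, 5.81 and 8.59 in hindbrain. The hindbrain libraries lay far below all others. The log2 fold change was 4.31 (SE 0.23, 19.9-fold, adjusted p = 3.79e-10) for forebrain against hindbrain and 3.88 (SE 0.23, 14.7-fold, adjusted p = 2.57e-09) for midbrain against hindbrain, both by edgeR. Forebrain and midbrain did not pass (0.43, 95% CI 0.01 to 0.86, adjusted p = 0.142). As a share of the per-kilobase level of the gamma cluster, Pcdhgc5 made up 24.1% ± 1.75 (SD, n = 6) in forebrain, 18.6% ± 2.07 in midbrain and 2.71% ± 1.14 in hindbrain.

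Its neighbours Pcdhgc3 and Pcdhgc4 differed much less. Pcdhgc3 was at 77.6, 153 and 214 CPM in the lowest, median and highest forebrain library, at 114, 148 and 176 in midbrain and at 76.9, 86.3 and 107 in hindbrain. Its midbrain libraries all exceeded the hindbrain libraries, whereas the ranges of forebrain and hindbrain overlapped through the forebrain library of Fmr1CRE mouse 1. It was higher by 0.74 on the log2 scale in forebrain (SE 0.16, adjusted p = 0.00111) and by 0.70 in midbrain (SE 0.16, adjusted p = 0.00184) than in hindbrain. Of 15 alternatives, the forebrain call was lost in 2 and the midbrain call in 1, with lowest estimates of 0.31 and 0.43. Pcdhgc4 was at 64.7, 84.3 and 100.4 CPM in forebrain, 52.6, 70.5 and 93.8 in midbrain and 30.9, 49.0 and 93.4 in hindbrain. Its ranges overlapped between all regions, and it passed for forebrain against hindbrain (log2 fold change 0.54, SE 0.20, adjusted p = 0.0345) but not for midbrain against hindbrain (0.27, 95% CI -0.16 to 0.69, adjusted p = 0.288). The forebrain call was lost in 5 of 15 alternatives, namely in wild type alone (log2 fold change 0.09), with total counts (0.39) and without any single Fmr1CRE mouse (0.52 to 0.59), with adjusted p over all 15 from 6.66e-04 to 0.851. Most of the reads behind its values were placed on the short transcript of mainly constant exons, whose share of the gene ranged from 51.5 to 93% over the 18 transcript-level files, which are not tied to named libraries here.

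The alpha C-type isoforms also followed the hindbrain-low order. Pcdhac2 was at 43.9, 57.2 and 65.1 CPM in forebrain, 53.3, 62.4 and 67.6 in midbrain and 35.6, 40.2 and 44.8 in hindbrain, each as lowest, median and highest library. Midbrain lay wholly above hindbrain, and the lowest forebrain library fell just inside the hindbrain range. The log2 fold changes were 0.49 for forebrain (SE 0.096, adjusted p = 4.89e-04) and 0.62 for midbrain (SE 0.096, adjusted p = 7.06e-05) against hindbrain. For Pcdhac2 the forebrain call was lost in 1 of 15 alternatives, with a lowest estimate of 0.31. Pcdhac1 was at 5.37, 7.65 and 8.27 CPM in forebrain, 5.58, 7.73 and 9.94 in midbrain and 4.23, 5.30 and 6.71 in hindbrain, ranges that overlapped, with log2 fold changes of 0.44 (SE 0.14, adjusted p = 0.0178) and 0.53 (SE 0.14, adjusted p = 0.00621). For Pcdhac1 the forebrain call was lost in 6 of 15 alternatives (0.22 to 0.46 on the log2 scale), namely in Fmr1CRE alone, with total counts, without wild-type mouse 1, wild-type mouse 2 or Fmr1CRE mouse 3, and without both mice of replicate 3. The midbrain call was lost in 2, in Fmr1CRE alone (0.34) and without both mice of replicate 3 (0.53).

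**Figure D3:**
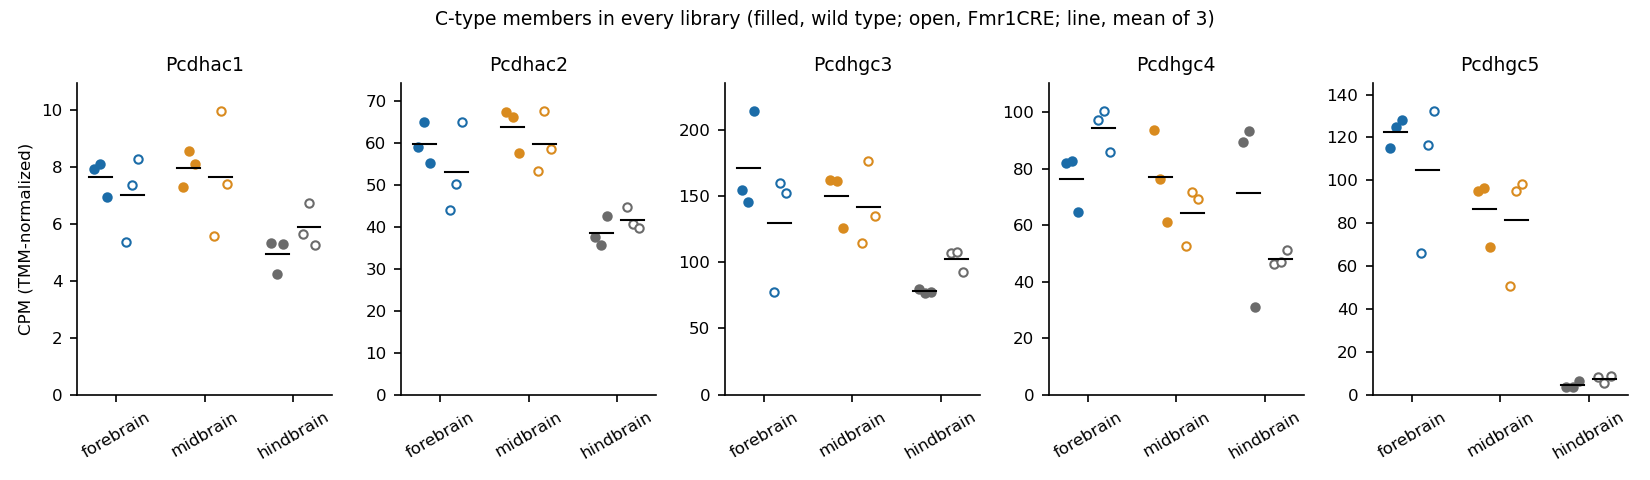
CPM of the 5 C-type members in each of the 18 libraries, by region and genotype, with a panel for each gene and a short line at the mean of the 3 libraries of a group. Pcdhgc5 is at 3.45 to 8.59 in the 6 hindbrain libraries and at 50.6 or above in all others.

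Of the variable alpha genes, Pcdha11 (ENSMUSG00000102206) and Pcdha12 had the largest differences. Pcdha12 was at 8.10, 13.4 and 15.1 CPM in forebrain, 11.8, 12.8 and 17.1 in midbrain and 4.79, 5.20 and 6.23 in hindbrain. No hindbrain library reached the lowest library of another region. Its log2 fold change was 1.22 for forebrain (SE 0.13, adjusted p = 1.13e-06) and 1.34 for midbrain (SE 0.13, adjusted p = 7.49e-07) against hindbrain. Pcdha11 was at 2.80, 5.45 and 7.24 CPM in forebrain, 3.94, 6.03 and 8.15 in midbrain and 1.11, 2.17 and 2.40 in hindbrain, again with hindbrain separate, and its log2 fold changes were 1.34 (SE 0.21) and 1.68 (SE 0.21). Pcdha4 and Pcdha9, among the most abundant, were higher against hindbrain by 0.61 and 0.72 in forebrain and by 0.65 and 0.93 in midbrain on the log2 scale, all 4 passing. Pcdha8, with at most 1 CPM in any library, passed in neither comparison.

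Against hindbrain, the beta genes had the smallest median difference of the 3 clusters, which was not tested between clusters. Pcdhb13 was at 3.08, 3.47 and 4.97 CPM in forebrain, 3.65, 4.14 and 5.10 in midbrain and 1.78, 2.19 and 2.81 in hindbrain. It was the clearest of its cluster, without overlap between hindbrain and either other region and with log2 fold changes of 0.74 (SE 0.13, adjusted p = 2.16e-04) and 0.95 (SE 0.13, adjusted p = 2.74e-05). Its forebrain call was lost in 1 of 15 alternatives, with a lowest estimate of 0.47. Pcdhb5 was higher in forebrain than in hindbrain by 0.61 (SE 0.18, adjusted p = 0.0107), with the lowest forebrain library at 2.76 and the highest hindbrain library at 3.32 CPM. The Pcdhb5 call was lost in 2 of 15 alternatives, with a lowest estimate of 0.47. Pcdhb2, at 1.78 to 4.05 CPM in midbrain and 0.445 to 2.56 in hindbrain, had the largest beta difference between these regions (1.07, SE 0.41, adjusted p = 0.0395), though its libraries overlapped. This call was lost in 6 of 15 alternatives, namely in either genotype alone (0.69 in Fmr1CRE, 1.41 in wild type) and without wild-type mouse 1 (0.69), wild-type mouse 2 (0.99), Fmr1CRE mouse 1 (0.86) or Fmr1CRE mouse 3 (0.96). The abundant Pcdhb20 was higher in midbrain by only 0.28 (SE 0.11, adjusted p = 0.0456) and at 0.15 in forebrain (95% CI -0.08 to 0.39, adjusted p = 0.266). Pcdhb8 was the one member whose estimates against hindbrain were both negative, -0.52 in forebrain (adjusted p = 0.0821) and -0.15 in midbrain (adjusted p = 0.633). In the Fmr1CRE libraries alone, and without wild-type mouse 2, Pcdhb8 passed as lower in forebrain than in hindbrain.

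The gamma-a and gamma-b genes, which encode the variable isoforms of the gamma cluster, were all called higher in midbrain than in hindbrain (18 of 18), with a median log2 fold change of 1.11. In forebrain 15 of 18 were called, with a median of 0.83. These forebrain calls depended on the libraries. They were 18 of 18 in wild type alone (median 1.09) and 1 of 18 in Fmr1CRE alone (median 0.36). Of all genes, 8299 of 19442 and 6178 of 19434 were called there. Without Fmr1CRE mouse 1 the forebrain calls were 18 of 18, and without both mice of replicate 3 they were 8 of 18. Pcdhga12 was at 6.95, 14.7 and 16.9 CPM in forebrain, 9.97, 14.7 and 17.7 in midbrain and 3.68, 5.01 and 6.46 in hindbrain. Its hindbrain libraries were separate from both other regions. The log2 fold changes were 1.47 (SE 0.19, adjusted p = 6.12e-06) for forebrain and 1.49 (SE 0.19, adjusted p = 8.46e-06) for midbrain. Pcdhga1 was at 5.99, 9.37 and 10.7 CPM in midbrain and 1.90, 2.88 and 3.68 in hindbrain, a difference of 1.64 on the log2 scale (SE 0.24, adjusted p = 4.20e-05). The most abundant, Pcdhga11, differed by 0.90 in forebrain (SE 0.21) and 1.04 in midbrain (SE 0.21). Pcdhga7, Pcdhga8 and Pcdhgb5 were the 3 that did not pass for forebrain, with log2 fold changes of 0.43 to 0.59.

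Forebrain and midbrain were much closer to each other. Members called numbered 5 of 56, all lower in forebrain, with 0 higher, whereas 19.3% of all genes were called, 9.38% higher and 9.96% lower in forebrain. The median log2 fold change was -0.25 over the members and 0.02 over all genes, and 52 of 56 members had a negative estimate. Those called were Pcdha3, Pcdhb3, Pcdhb9, Pcdhb14 and Pcdhb18, of which 4 are beta genes. Pcdhb18 was at 3.83, 6.05 and 7.48 CPM in forebrain and 7.21, 8.30 and 8.91 in midbrain, a log2 fold change of -0.47 (SE 0.12, adjusted p = 0.0146). Pcdhb3 differed by -0.46 (SE 0.15, adjusted p = 0.0365) and Pcdha3 by -0.39 (SE 0.11, adjusted p = 0.0234). Ranges of all 3 overlapped between the regions. The calls depended on the libraries used. Their number was 10 without both mice of replicate 3, with 2 of the 5 genes among them, where 3821 of 20602 genes were called. It was 0 in either genotype alone, where 1729 of 19442 genes were called in wild type and 527 of 19434 in Fmr1CRE. Leaving out single mice gave 1 to 10. The count was 1 without wild-type mouse 2 (2337 of 20689 genes called) or Fmr1CRE mouse 2 (2677 of 20741). It was 10 without Fmr1CRE mouse 3 (4001 of 20818). Forebrain markers were also present in the midbrain libraries, as given above, and their part in this comparison was not tested.

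Markers of other cell types moved with the regions. The 4 oligodendrocyte genes (Mbp, Mog, Mobp and Cnp) summed to 8345 to 11251 CPM in forebrain, 10362 to 12584 in midbrain and 18762 to 26158 in hindbrain, and all 4 were called lower in both other regions than in hindbrain. The 5 pan-neuronal genes summed to 2866 to 3620, 3206 to 3703 and 2881 to 3093, and 2 of them were called higher and 3 lower in forebrain than in hindbrain. The synaptic vesicle gene Syt1 was higher in forebrain by 2.28 (SE 0.11) and the tubulin gene Tubb3 lower by 0.40 (log2 fold change -0.40, SE 0.11). Markers of immature neurons (Dcx, Sox11, Igfbpl1, Sox4) summed to 110 to 131 CPM in forebrain, 69.8 to 94.4 in midbrain and 33.4 to 42.3 in hindbrain. Sums in the same order were 230 to 337, 173 to 224 and 109 to 134 for 5 microglial genes and 1051 to 1611, 1380 to 1638 and 1610 to 2425 for 5 astrocyte genes. For 8 choroid plexus genes they were 385 to 886, 183 to 503 and 925 to 3260. Less abundant were 3 oligodendrocyte precursor genes (250 to 324, 294 to 410, 289 to 411), 4 endothelial genes (78.8 to 137, 71.2 to 93.2, 63.1 to 90.8), 5 genes of meninges and vascular fibroblasts (43.0 to 73.2, 70.1 to 128, 75.6 to 127) and 4 serotonergic genes (3.29 to 7.16, 33.2 to 88.4, 21.8 to 65.9 CPM). None of these markers was at 0 in every library of a region (0 genes). Their part in the regional differences of the members was not tested.

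Other genes of the pathway were counted from fixed lists, which were drawn up with earlier results of these data known. Of 15 genes for promoter choice and looping, among them Ctcf, cohesin subunits and DNA methyltransferases, 5 were called higher in midbrain than in hindbrain and 0 lower (median log2 fold change 0.06), and 3 higher and 3 lower in forebrain than in hindbrain. These shares were no larger than those of all genes in the same comparisons, 49.1% and 51.7% called. The largest were Wiz, a zinc finger protein that works with CTCF (0.71, SE 0.15), and the methyltransferase genes Dnmt3a (0.66, SE 0.12) and Dnmt1 (0.44, SE 0.088), all for midbrain against hindbrain. Of 13 binding partners and signalling genes, 7 were higher and 1 lower in midbrain than in hindbrain, and 8 higher and 2 lower in forebrain. Over all genes, 25.1% were higher and 24.0% lower in midbrain, and 26.4% higher and 25.3% lower in forebrain. Ptk2b, a focal adhesion kinase that the cytoplasmic tails bind, was at 226 to 283 CPM in forebrain and 3.34 to 8.30 in hindbrain (log2 fold change 5.79, SE 0.20). Wasf1, of the WAVE actin complex, was higher in midbrain by 2.08 (SE 0.16), and Ret, a receptor kinase that binds protocadherins, was lower in forebrain than in hindbrain (log2 fold change -2.38, SE 0.25). Protocadherins outside the clusters resembled the members in direction, with 10 of 12 higher and 0 lower in midbrain (median 0.96) and 9 higher and 1 lower in forebrain (median 0.82), both against hindbrain. Between forebrain and midbrain, calls were 0 higher and 1 lower of 15, 0 higher and 1 lower of 13, and 0 higher and 4 lower of 12 in these lists. Over all genes 19.3% were called in that comparison, 9.38% higher and 9.96% lower in forebrain.

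Across genes of a cluster, position and composition were compared with these differences as a description only, since neighbouring genes share reads and libraries. Over the 12 variable alpha genes, order from the 5′ end of the cluster correlated with the log2 fold change against hindbrain (Spearman's rho 0.64 for forebrain and 0.67 for midbrain). Later alpha genes thus tended to have the larger regional difference. In the 21 tested beta genes rho was -0.06 and -0.44, and in the 18 gamma-a and gamma-b genes -0.09 and -0.23. For forebrain against midbrain, rho with order was 0.62 in the beta genes and 0.03 and 0.18 in the other sets. With G and C content rho was between -0.25 and 0.39 for levels and for both comparisons with hindbrain.

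The study's own comparison is between genotypes. By edgeR at an adjusted p below 0.05, 0 of 56 members were called in forebrain, where 0% of the 18467 genes tested were called, 0 in midbrain, where 0.00543% of 18400 were called, and 0 in hindbrain, where 0% of 19112 were called. With the 3 regions summed for each mouse the count was again 0, where 0.00451% of 22191 genes were called. At an unadjusted p below 0.05, 3 members passed in forebrain, 0 in midbrain, 4 in hindbrain and 0 in the sum, where the shares of all genes were 5.43%, 6.17%, 5.13% and 3.70%. DESeq2 likewise called 0 members in each, where it called 0.168%, 0.337%, 0.349% and 0.124% of all genes.

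In forebrain the summed level of all members was 872, 851 and 909 CPM in wild-type mice 1 to 3 and 537, 810 and 907 CPM in Fmr1CRE mice 1 to 3. The low value belonged to 1 library, and the other Fmr1CRE libraries lay near or within the wild-type range. That library, the forebrain of Fmr1CRE mouse 1, was the lowest forebrain library for 47 of the 57 members and for 18 of 18 gamma-a and gamma-b genes, whose sum was 90.6 CPM there and 187 to 239 in the other 5. The same library was also the lowest forebrain library in the summed markers of astrocytes, oligodendrocyte precursors, microglia and endothelium, in the 3 pathway lists above, and the highest in choroid plexus genes, and their part in the result was not tested. The median genotype difference on the log2 scale was -0.20 over the members (8 positive, 48 negative) and -0.37 over gamma-a and gamma-b genes (0 positive, 18 negative), beside 0.00 over all genes. Over all genes 50.1% of the estimates were positive. Members share reads and libraries, so their signs are not independent. Without Fmr1CRE mouse 1 the medians over the members and over gamma-a and gamma-b genes were -0.04 and -0.06. Without both mice of replicate 3 they were -0.39 and -0.57, with 0 members called in either case.

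**Figure D4:**
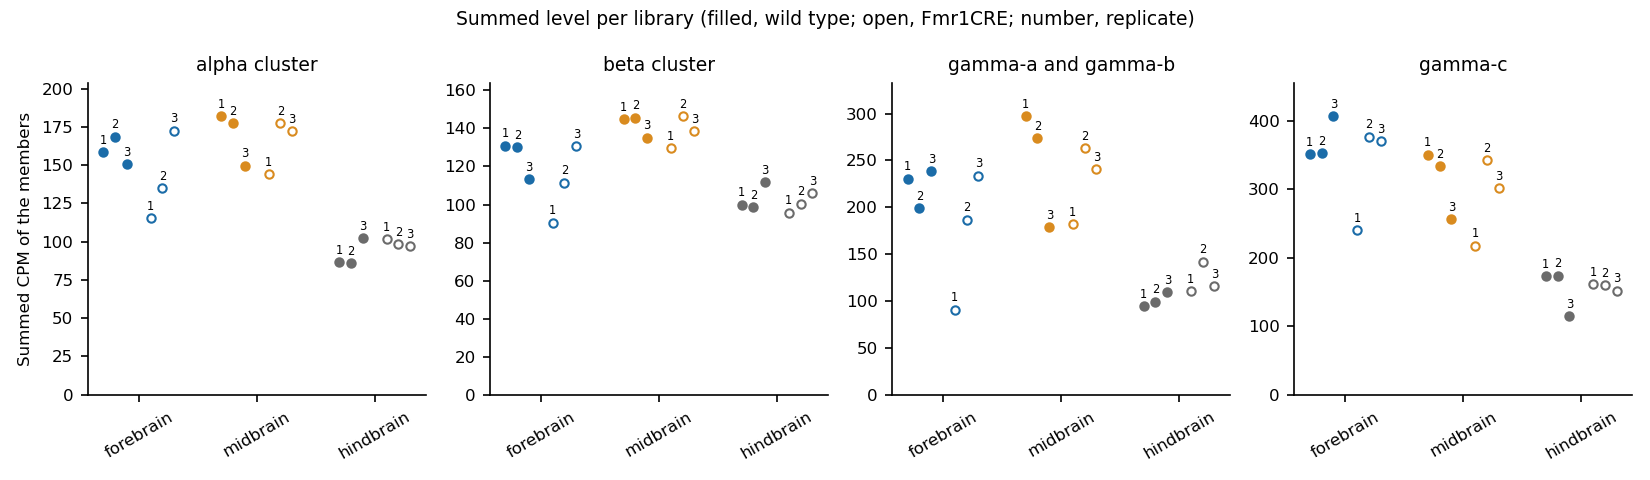
Summed CPM of the alpha cluster, the beta cluster, the gamma-a with gamma-b genes and the gamma-c genes in each of the 18 libraries, by region, with filled points for wild type, open points for Fmr1CRE and the mouse number above each. For gamma-a with gamma-b the forebrain library of Fmr1CRE mouse 1 is at 90.6, below the other 5 forebrain libraries, which lie between 187 and 239.

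In forebrain, Pcdhb14, Pcdhgc4 and Pcdhga5 had an unadjusted p below 0.05. Pcdhb14 was at 8.94, 9.76 and 7.24 CPM in wild type and 5.69, 6.05 and 6.82 in Fmr1CRE. All 3 Fmr1CRE values were below the wild-type values, with a log2 fold change of -0.45 (SE 0.18, adjusted p = 0.806). Pcdhgc4 was at 82.1, 82.6 and 64.7 CPM in wild type and 97.3, 100.4 and 86.1 in Fmr1CRE (0.34, SE 0.14, adjusted p = 0.806), with the limit on its reads given above. Pcdha11 (ENSMUSG00000102206) was at 5.72, 5.44 and 7.24 against 2.80, 3.83 and 5.45 CPM (-0.58, SE 0.26, adjusted p = 0.806). It had the smallest p of the alpha cluster. Pcdhga5, named after its values were seen, was at 11.5, 9.23 and 9.98 CPM in wild type and 3.83, 6.09 and 8.95 in Fmr1CRE (-0.68, SE 0.28, adjusted p = 0.806). None of these 4 passed.

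In midbrain the sums of all members were 975, 931 and 720 CPM in wild type and 673, 929 and 854 in Fmr1CRE, ranges that overlapped. The median log2 difference was -0.08 (16 positive, 40 negative), where 49% of all genes had a positive estimate. By smallest p in their cluster, Pcdha12 stood at -0.24 (SE 0.14), Pcdhb6 at 0.36 (SE 0.22) and Pcdhgb1 at -0.34 (SE 0.22), with adjusted p of 0.821 to 0.843. No member had an adjusted p below 0.821 in midbrain.

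In hindbrain the estimates leaned the other way. The sums were 454, 458 and 438 CPM in wild type and 469, 501 and 471 in Fmr1CRE, so that all 3 Fmr1CRE libraries were above the wild-type libraries. The median log2 difference was 0.11 over the members (41 positive, 15 negative) and 0.30 over gamma-a and gamma-b genes (18 positive, 0 negative), beside -0.01 over all genes. Over all genes 48.3% of the estimates were positive, and the signs of members that share reads and libraries are not independent. Pcdhgc3 was at 79.9, 76.9 and 77.5 CPM in wild type and 106.7, 107.4 and 92.6 in Fmr1CRE. Its groups did not overlap, and its p was the smallest of all members in any genotype comparison, yet it did not pass (log2 fold change 0.38, SE 0.10, adjusted p = 0.875). Pcdhgc5 was at 3.45, 3.57 and 6.17 against 8.32, 5.45 and 8.59 CPM (0.76, SE 0.29, adjusted p = 0.875). Pcdhgc4 split the wild-type group, at 89.5, 93.4 and 30.9 CPM against 46.3, 47.0 and 51.1 (-0.58, SE 0.36, adjusted p = 0.882). Wild-type mouse 3 was below all Fmr1CRE mice while the other 2 were above them. Pcdha7 (0.68, SE 0.29) and Pcdhb22 (-0.35, SE 0.16) had the smallest p of the alpha and beta clusters, with adjusted p = 0.875 for each.

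**Figure D5:**
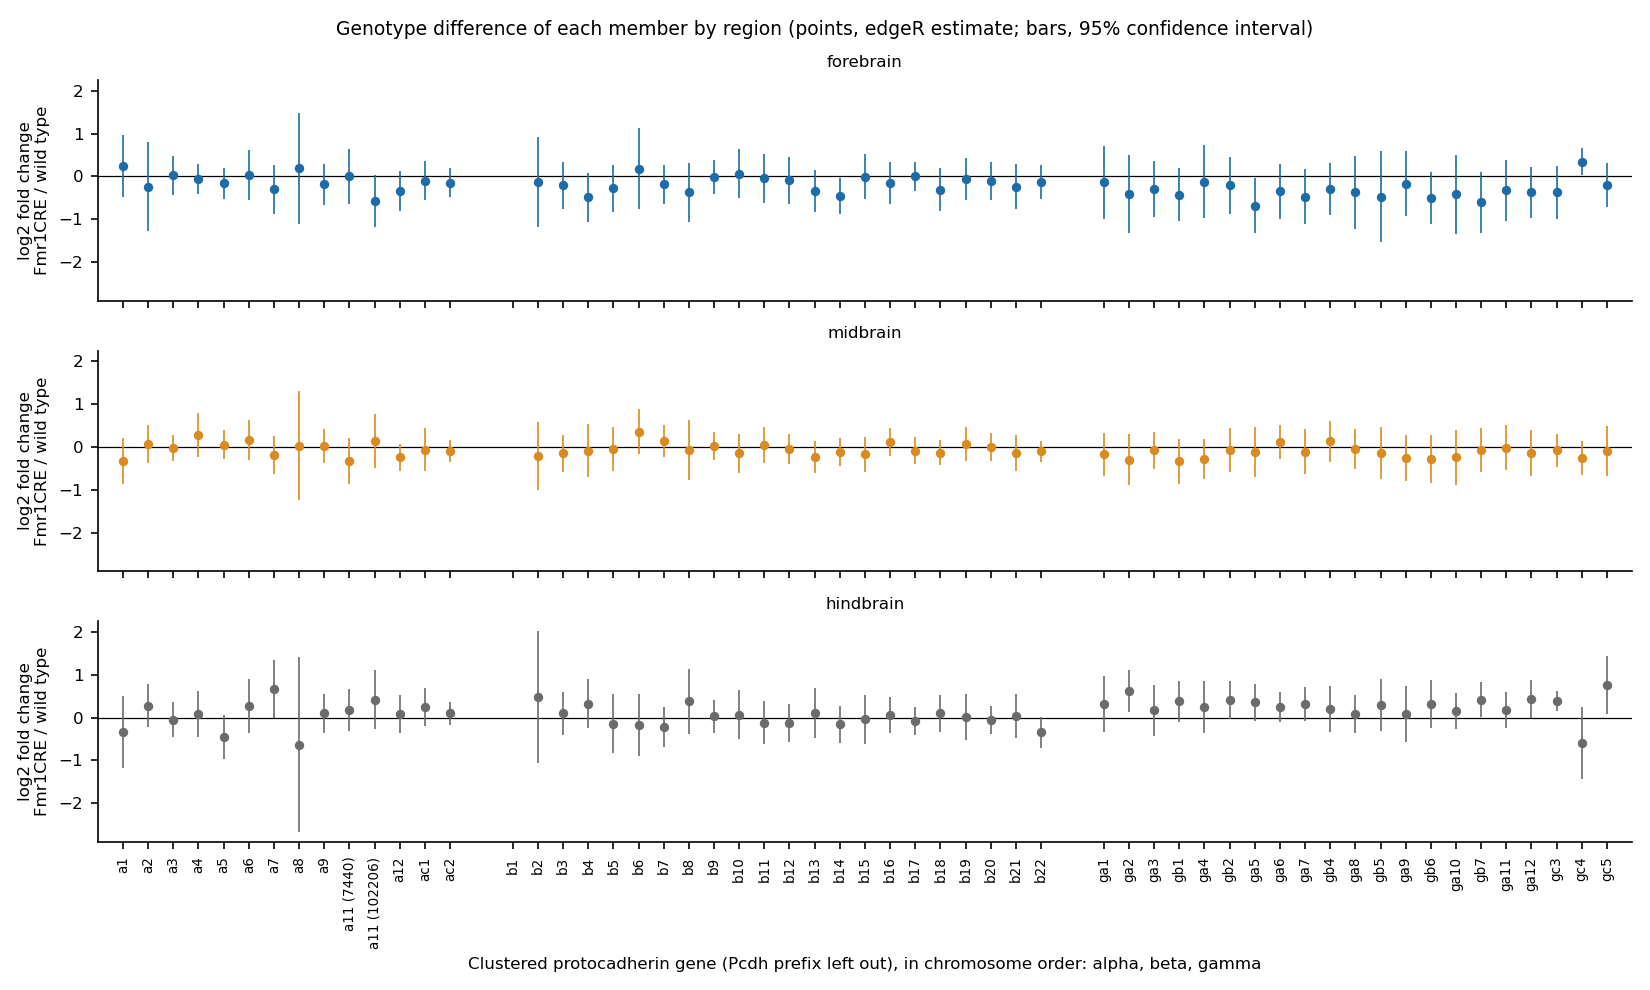
Log2 fold change of each tested member in Fmr1CRE against wild type, in forebrain, midbrain and hindbrain, with 95% confidence intervals and genes in chromosomal order. The 18 gamma-a and gamma-b genes lie below 0 in forebrain and above 0 in hindbrain, and no member passed at an adjusted p below 0.05.

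Summed over regions, the differences were small, with a median of -0.07 (13 positive, 43 negative) and single values between -0.22 and 0.15 on the log2 scale. Over all genes 50.2% of these estimates were positive. The smallest p belonged to Pcdhb22 (-0.18, 95% CI -0.39 to 0.03), Pcdha12 (-0.20, 95% CI -0.48 to 0.08) and Pcdhgb1 (-0.21, 95% CI -0.60 to 0.19), each with an adjusted p of 0.998. Whether the genotype difference itself changed with region was tested by an interaction over all 18 libraries, which treats the 3 samples of one mouse as if unrelated. It called 0 of 56 members, where 0% of all genes were called. At an unadjusted p below 0.05, 3 members passed (Pcdha7, Pcdhga5 and Pcdhgb7), where 7.54% of all genes did. With the mouse as a replicate block, 8 members passed at that level, 7 of them gamma genes, where 1454 of 20363 genes did, and the count at an adjusted p below 0.05 was again 0. DESeq2 called 0 members, where it called 0.266% of all genes. The adjusted p was 0.660 for Pcdha7 and Pcdhgb7 and 0.663 for Pcdhb4, the smallest of the beta genes. The opposite leaning of the gamma-a and gamma-b genes in forebrain and hindbrain was thus not called as a difference between regions for any gene. The 3 pathway lists held 0 called genes in every genotype comparison.

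Spread between mice differed by cluster. The biological coefficient of variation estimated by edgeR for single genes had a median of 20.3% over alpha, 15.4% over beta and 24.5% over gamma genes, beside 18.1% over all genes tested. This spread depends on level. The trend that edgeR fitted for genes of the same level had medians of 25.3%, 28.5% and 22.6%, and 20.9% over all genes. The alpha and beta medians were thus below the trend and the gamma median above it. The gamma values include the low forebrain library of Fmr1CRE mouse 1. Pcdha8 (59.1%) and Pcdhb2 (47.4%) were the most variable members, and both were expressed at low levels.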

How the data were processed

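Poly(A) RNA of 18 libraries was sequenced as single-end reads. The authors processed the reads with bcbio_nextgen and quantified transcripts with Salmon 0.14.0 against mm10, as named in the submitters' processing notes, and deposited counts per gene, which are Salmon estimates rounded to whole numbers without normalization (DESeq2 1.30.1 is also named). The annotation release is not given in the sources used here. The deposited expected counts per transcript were used summed over the 18 files, for effective lengths and transcript shares, and for the range of a share over files, with no library named, since their names and sample records disagree. The deposited variance-stabilized log2 values were not used here.

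Symbols came from GENCODE M21 (53363 of 53468 identifiers matched). Counts were tested with edgeR 4.0.16 in R 4.3.3 (TMM scaling, default filter on low counts, quasi-likelihood F test, Benjamini-Hochberg adjustment over all genes at 0.05), and the method was tested on simulated data. Genotypes were compared within regions and in counts summed per mouse, and regions over 6 group means. CPM values are TMM-scaled. DESeq2 1.42.0, other scalings and filters, blocks, single genotypes and left-out mice were alternatives. Library totals were 22455512 to 28061185. Replicates are separate mice of 1 litter. The 3 regions of a mouse come from the same animal, per the labels, and their deviations from group means correlated at -0.17 to 0.178.

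Named with values were the 5 C-type members, the 3 highest and the lowest members per cluster by level, up to 2 higher and 2 lower called members with the largest fold change per cluster and region comparison, the member with the smallest p per cluster and genotype or interaction test, and up to 3 genes per list. Other members named were chosen after their values were seen. Members and lists were chosen with earlier results of these data known. Some genes of the marker lists are not reported here, and the lists were used without them.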

Additional observations from a re-analysis of the deposited data

Results flagged for a closer look

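For 41 values (cluster sums and the members named by the rule) in each of 3 regions, the 6 libraries of a region, both genotypes pooled, were searched for a highest or lowest library that stood farther from its nearest neighbour than Dixon's 95% critical value of 0.625 of the whole range. This marked 15 of 123 groups, where chance marks about 1 in 20, and the groups are not independent, since sums contain members and libraries are shared.

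The forebrain library of Fmr1CRE mouse 1 was the low library in 12 of them. All members summed to 537 CPM there (nearest library 810), the gamma cluster to 332 (nearest 552), gamma-c to 241 (nearest 352) and gamma-a with gamma-b to 90.6 (nearest 187). Among single genes it held 66.0 CPM of Pcdhgc5 (nearest 115), 9.91 of Pcdha4 (nearest 12.5), 6.32 of Pcdha9 (nearest 10.1), 7.98 of Pcdhga3 (nearest 16.2), 6.16 of Pcdhga7 (nearest 12.8), 1.66 of Pcdhgb5 (nearest 5.60), 6.95 of Pcdhga12 (nearest 14.2) and 2.53 of Pcdhb3 (nearest 3.91). The hindbrain library of wild-type mouse 3 was the low one for the sum of gamma-c, at 115 CPM (nearest 152). Pcdhb1 was high in 2 libraries of Fmr1CRE mouse 1, at 0.204 CPM in midbrain (nearest 0.0872) and 0.107 in hindbrain (nearest 0.0371), values that rest on 0 to 5 counts. No difference of a genotype effect between regions passed the interaction test for a member (0 of 56 by edgeR and by DESeq2).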

How the results depend on the processing

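All genotype and interaction comparisons called 0 members under every alternative run, including the replicate block, and left-out mice gave 0 to 0. Wild-type and Fmr1CRE mice share only a replicate number, with correlations of same-numbered deviations from -0.12 to 0.0693, so the block by number is no pairing. With mouse as a replicate block the region counts were 35, 6 and 51 for forebrain against hindbrain, forebrain against midbrain and midbrain against hindbrain (37, 5 and 51 without it). Counts that moved by more than 1.5 times were, in Fmr1CRE libraries alone, 8, 0 and 18 in the same order. Without both mice of replicate 3 they were 23 and 10 for the first 2. For forebrain against midbrain the count was 0 in wild type alone. With at least 10 counts in every library it was 8, where 3657 of all 15960 genes were called. It was 2 without a filter (3299 of 38195 genes) and 8 with total counts alone (4317 of 20363). Calls over all genes for the single genotypes and without replicate 3 are given above. Leaving out single mice gave 26 to 41, 1 to 10 and 43 to 50. Estimates for forebrain against midbrain that changed sign, of genes that passed in no setting here, were Pcdhgc4 in wild type alone (-0.0084), Pcdhac1 without single mice (-0.1753 to 0.0066, the latter without Fmr1CRE mouse 2), and Pcdhgc3 in Fmr1CRE alone (-0.1247), with total counts (-0.0296), without both mice of replicate 3 (-0.2017) and without single mice (-0.1186 to 0.1186, negative without mouse 3 of either genotype). The cause was not tested, beyond the smaller number of libraries where some were left out. Of the values of named members, 532 kept their direction and side of the threshold, 46 no longer passed and 7 changed sign. Total counts alone moved the median of all genes to -0.15 for forebrain against hindbrain and -0.11 for midbrain against hindbrain. Pcdhb1, with 0 to 5 counts per library, was tested only without a filter.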
